A study of Homo sapiens with 8 samples.

Results

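The cytosolic ribosomal protein genes were examined in RNA polymerase II (RNAPII) ChIP-seq peak lists from MDA-MB-453, a human breast cancer cell line. Members were the protein-coding genes of GENCODE release 44 lifted to GRCh37 (hg19) whose symbols are RPL or RPS, or RPLP for the stalk, followed by a number, without RPL21 and RPS7; 81 of 20090 protein-coding genes on chromosomes 1 to 22 and X met this rule, which used no measured value. The cells had been treated for 4 h with vehicle or with 600 nM of CDDD11-8, an inhibitor of CDK9 that the labels call D11-8, and each group comprised 2 ChIP libraries from independent passages, with matched input DNA. All 4 ChIP libraries were made from the same parental cell line with an antibody to RNAPII (clone CTD4H8). Of the 81 genes, 42 encode proteins of the large 60S subunit, 29 encode proteins of the small 40S subunit, 3 encode the P stalk and 7 are paralogues with symbols ending in L or L1.

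Each cytosolic ribosome is built from a small subunit, which reads the mRNA, and a large subunit, which joins amino acids, and every protein of both is made from a separate nuclear gene transcribed by RNAPII. These genes are short and among the most heavily transcribed in dividing cells, and their mRNAs typically start with a 5′ terminal oligopyrimidine (TOP) tract, a C followed by a run of C and T that places their translation under control of mTOR. CDK9 is the kinase of P-TEFb, which releases RNAPII from its pause just after the transcription start site (TSS) into productive elongation, so that the length of gene over which RNAPII can be detected is the quantity of interest after its inhibition.

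The TOP tract was the sequence feature most common to the members. In the genome sequence, 57 of the 81 members (70.4%) had a C at the annotated TSS followed by at least 4 pyrimidines on the sense strand, against 4.56% of all 20090 protein-coding promoters and 6.36% of 1919 other genes of similar length whose promoters carried a peak throughout. A further set of members had such a tract near the annotated start: 75 members (92.6%) had one beginning within 20 bp of it, although 49.7% of all promoters did as well. From 250 bp before to 50 bp after the TSS and on either strand, the ETS-type motif CCGGAAG was present in 37.04% of members, 14.0% of all promoters and 25.5% of those 1919 genes, and AAGATGG, the core of the YY1 motif, was present in 17.3%, 6.47% and 7.76%, respectively. In the same order the E-box CACGTG was found in 7.41%, 8.74% and 10.6%, the SP1-type GGGCGG in 59.3%, 61.0% and 75.4%, and TATAAA in 9.88%, 9.81% and 5.63%. The windows below cover 60 bases before the TSS to 19 after it, in GRCh37 coordinates and in the 5′ to 3′ direction of the gene, and capitals mark the TOP tract where it starts at the TSS. They show stalk, large and small subunit genes whose values are given below, and the paralogues RPL10L, RPL39L and RPS27L with the genes they are named after.
RPLP0 (chr12:120638895-120638974, minus strand): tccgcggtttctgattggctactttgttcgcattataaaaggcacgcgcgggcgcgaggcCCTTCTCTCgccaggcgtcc
RPL5 (chr1:93297537-93297616, plus strand): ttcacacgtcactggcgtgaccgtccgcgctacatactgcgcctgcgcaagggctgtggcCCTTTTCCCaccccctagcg
RPL11 (chr1:24018236-24018315, plus strand): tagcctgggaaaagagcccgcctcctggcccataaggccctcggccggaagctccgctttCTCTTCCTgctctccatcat
RPL41 (chr12:56510357-56510436, plus strand): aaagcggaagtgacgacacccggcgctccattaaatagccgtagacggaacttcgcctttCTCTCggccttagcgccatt
RPS6 (chr9:19380215-19380294, minus strand): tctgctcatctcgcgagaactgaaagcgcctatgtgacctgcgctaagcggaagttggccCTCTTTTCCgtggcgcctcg
RPS19 (chr19:42364265-42364344, plus strand): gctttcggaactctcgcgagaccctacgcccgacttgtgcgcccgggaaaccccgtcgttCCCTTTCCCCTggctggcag
RPL39 (chrX:118925574-118925653, minus strand): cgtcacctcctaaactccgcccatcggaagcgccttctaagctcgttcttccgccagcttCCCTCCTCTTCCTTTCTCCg
RPL36A (chrX:100645939-100646018, plus strand): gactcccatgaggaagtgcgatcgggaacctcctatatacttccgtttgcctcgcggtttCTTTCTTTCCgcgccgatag
RPL3 (chr22:39715609-39715688, minus strand): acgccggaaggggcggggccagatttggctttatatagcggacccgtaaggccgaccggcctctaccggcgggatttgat
RPL10 (chrX:153626658-153626737, plus strand): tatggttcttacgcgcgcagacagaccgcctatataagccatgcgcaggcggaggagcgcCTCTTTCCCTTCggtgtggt
RPL10L (chr14:47120965-47121044, minus strand): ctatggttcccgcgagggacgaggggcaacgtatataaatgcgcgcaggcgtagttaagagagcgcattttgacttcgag
RPL39L (chr3:186857265-186857344, minus strand): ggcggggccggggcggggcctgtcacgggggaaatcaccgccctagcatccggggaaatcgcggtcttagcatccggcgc
RPS27 (chr1:153963178-153963257, plus strand): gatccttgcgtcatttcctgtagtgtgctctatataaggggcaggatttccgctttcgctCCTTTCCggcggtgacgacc
RPS27L (chr15:63449657-63449736, minus strand): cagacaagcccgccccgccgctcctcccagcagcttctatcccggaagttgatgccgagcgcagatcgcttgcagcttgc
The promoters of RPLP0, RPL5, RPL11, RPL41, RPS6, RPS19, RPL39, RPL36A, RPL10 and RPS27 began with a tract at the annotated base, while RPL3, where such a tract began 1 base upstream of the annotated base, and the paralogues RPL10L, RPL39L and RPS27L did not.

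The members were also short and often hosts of small nucleolar RNAs, the guides for modification of ribosomal RNA. Their genomic spans had a median of 4522 bp (range 772 to 18549 bp), with a median of 5 exons. A snoRNA gene lay within 26 of the 81 members on the same strand (32.1%), against 1.20% of the 1919 other genes of similar length, and RPL13A, RPL23A, RPL4 and RPL7A were among those that held 4.

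The deposited files are lists of peaks, so occupancy was described by where peaks lay and not by read counts. A promoter peak was a peak region overlapping the 300 bp on either side of the TSS of the Ensembl canonical transcript, its width was the length of that region, and its fold rank was the percentile of its fold enrichment over input among all regions of the same library. The number of peak regions per library differed between groups for the genome as a whole: 78306 and 57493 for vehicle against 25897 and 21842 for CDDD11-8. The lists do not give sequencing depth, which can affect the number and width of peaks, and its part in the widths and coverages below was not tested. Fold enrichment is scaled within a library, so ranks and positions were compared between libraries and fold values were not. With 2 libraries per group, the exact two-sided permutation test over libraries cannot give a p-value below 0.33, and none of the differences below could therefore reach significance; each is described by its 4 library values and by whether the groups overlap.

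RNAPII occupied the promoters of nearly all members in both conditions. In each of the 4 libraries 78 of the 81 members (96.3%) had a promoter peak, and they were the same 78 genes, compared with 10192 of the 20090 protein-coding genes (50.7%) with that pattern. The difference between groups was 0 (exact permutation test p = 1). The 78 genes lay in 77 distinct regions in every library. The peak of 39 of the 78 members also reached, in at least 1 library, the promoter of another protein-coding gene, such as SUPT5H beside RPS16 or GCN1 beside RPLP0. RPSA, RPL36AL, FAU and RACK1, cytosolic ribosomal protein genes that the symbol rule misses, had a promoter peak in every library.

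The members without a promoter peak were 3 paralogues. RPL10L, an intronless testis-expressed copy of RPL10, and RPL39L, a copy of RPL39, had 0% of the gene body and 0% of the 3 kb after the transcription end site (TES) in peaks in all 4 libraries. RPL3L, a muscle form of RPL3, had no promoter peak and 0.192%, 0.835%, 7.61% and 5.94% of its body in peaks in vehicle 1, vehicle 2, CDDD11-8 1 and CDDD11-8 2, with 51.3% and 59.7% of the 3 kb after its TES covered in vehicle and 94.1% and 77.3% in CDDD11-8. The nearest other protein-coding gene lay 775 bp from RPL3L, so that this coverage cannot be assigned to RPL3L. The genes they are named after were occupied throughout: RPL3 ranked at percentiles 99.9 and 99.8 of the vehicle peaks, RPL10 at 99.6 and 99.4, and RPL39 at 97.2 and 98.2.

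The 4 remaining paralogues, RPL7L1, RPL22L1, RPL26L1 and RPS27L, had promoter peaks in all libraries but lower ranks under the inhibitor than most members. Their median fold rank was 97.5 and 94.1 in vehicle and 84.7 and 76.4 in CDDD11-8, and in all 4 genes both CDDD11-8 ranks lay below both vehicle ranks, as they did in 42.2% of all genes, whose median rank was 90.98 and 91.5 in vehicle and 84.1 and 80.6 in CDDD11-8. RPS27L, a p53-responsive paralogue of RPS27, ranked at 94.4 and 93.1 in vehicle and 81.8 and 75.5 in CDDD11-8, and its peak was 4276, 2591, 4504 and 3225 bp wide. RPS27 itself ranked at 99.9 and 94.7 in vehicle and 94.1 and 92.3 in CDDD11-8, with a peak of 9852 and 8491 bp in vehicle and 19491 and 15611 bp in CDDD11-8 that also covered the promoter of RAB13. With regions within 1 kb of each other joined, the RPS27 difference had the opposite sign (-21839.5 bp).

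Peaks at the members were narrower in the CDDD11-8 libraries, whereas peaks at most genes were wider. The median width over the 78 members was 11664.5 and 11658.5 bp for vehicle (mean 11661.5 ± 4.24 bp, SD, n = 2) and 9436.5 and 7744.5 bp for CDDD11-8 (8590.5 ± 1196 bp, SD, n = 2), a difference of -3071 bp (exact permutation test p = 0.33). Both inhibitor medians lay below both vehicle medians. A gene was counted as narrower or wider when its 2 CDDD11-8 values lay wholly below or wholly above its 2 vehicle values, and the other measures were counted likewise. By gene, 37 of the 78 members (47.4%) were narrower and 17 (21.8%) were wider, the latter 26 without CDDD11-8 2. Over all 10192 genes whose promoters carried a peak throughout, 9.46% were narrower and 64.5% wider by the same criterion. The shares were 40.5% narrower among 60S genes, 58.6% among 40S genes, and 1 of the 3 stalk genes.

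**Figure D1:**
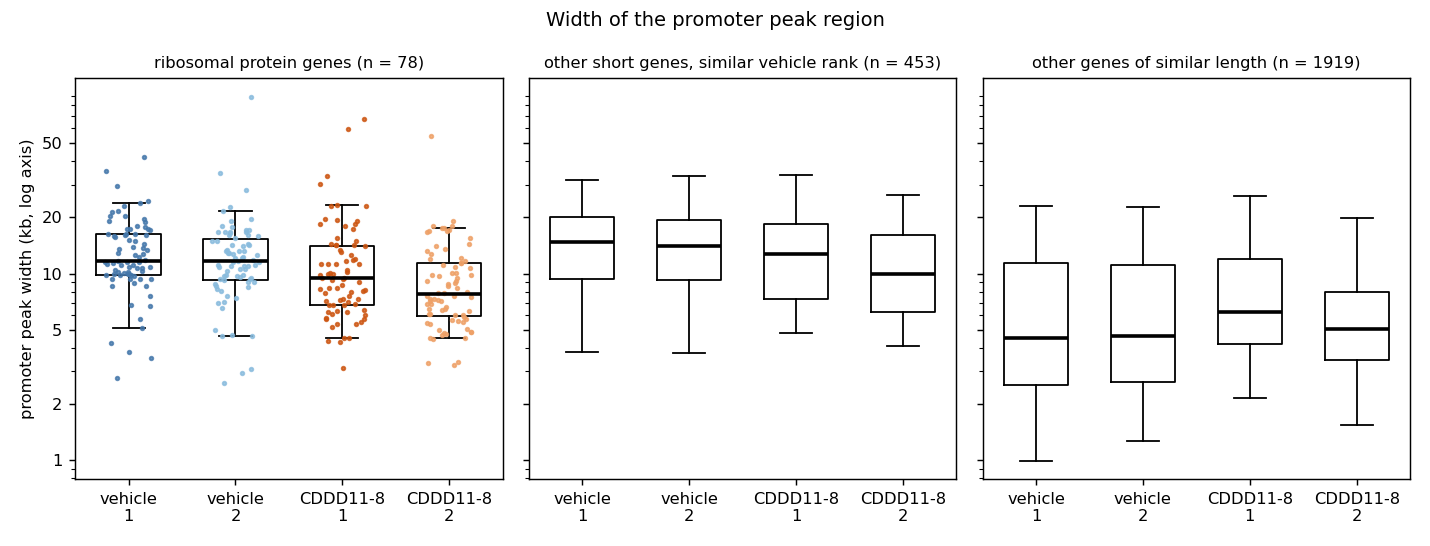
Width of the promoter peak region in kb (log axis) in each library for the ribosomal protein genes, for other short genes of similar vehicle fold rank and for other genes of similar length. Boxes span the quartiles, thick lines are medians, whiskers run from the 5th to the 95th percentile of genes, and points in the left panel are single genes. The member medians are 11664.5 and 11658.5 bp in vehicle and 9436.5 and 7744.5 bp in CDDD11-8, those of the middle panel are lower in CDDD11-8 as well, and those of the right panel are higher.

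The difference was larger at members that stand alone and lay on the downstream side. Over the 35 members at least 3 kb from any other coding gene the median width was 12855 and 11184 bp in vehicle and 7283 and 6613 bp in CDDD11-8. RPS3A, a 40S protein gene whose nearest coding neighbour is 15639 bp away, had peaks of 17804 and 17197 bp in vehicle and 6828 and 4474 bp in CDDD11-8. RPLP1, which encodes an acidic stalk protein that recruits elongation factors, had 15815 and 14979 bp in vehicle and 6272 and 6613 bp in CDDD11-8. RPS6, the ribosomal substrate of S6 kinase, is nearer to another gene (1434 bp) and had 9413 and 9735 bp in vehicle and 5194 and 4772 bp in CDDD11-8. In each of these 3 genes the groups did not overlap. Over the same 35 members, the peak extended upstream of the TSS by a median of 2288 and 1729 bp in vehicle and 2595 and 2423 bp in CDDD11-8. At the other end it passed the TES by a median of 4660 and 4194 bp in vehicle, passed it by 197 bp in CDDD11-8 1, and stopped short of it in CDDD11-8 2 (-1204 bp). The number of these 35 genes whose promoter peak ran beyond the TES was 31 and 31 in vehicle and 18 and 11 in CDDD11-8.

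Members with wider peaks mostly lay beside other genes. Of the 17 wider members, 2 were at least 3 kb from other coding genes, and 3 had a peak that reached no other promoter. RPL27A, a 60S gene, had 10074 and 5001 bp in vehicle and 12549 and 11073 bp in CDDD11-8, with the promoter of TRIM66 inside the peak. RPL13, a 60S gene 2916 bp from its neighbour, had 10263 and 9851 bp in vehicle and 14102 and 13165 bp in CDDD11-8. The widest member peak belonged in every library but CDDD11-8 1, where that of RPL10 was wider (67590 bp), to RPLP2, the other acidic stalk gene, at 42275 and 88819 bp in vehicle and 59578 and 54794 bp in CDDD11-8, a region holding the promoters of 10 other genes, and there the groups overlapped. RPLP0, the stalk scaffold, had 13535 and 10933 bp in vehicle and 12023 and 12089 bp in CDDD11-8, also overlapping.

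**Figure D2:**
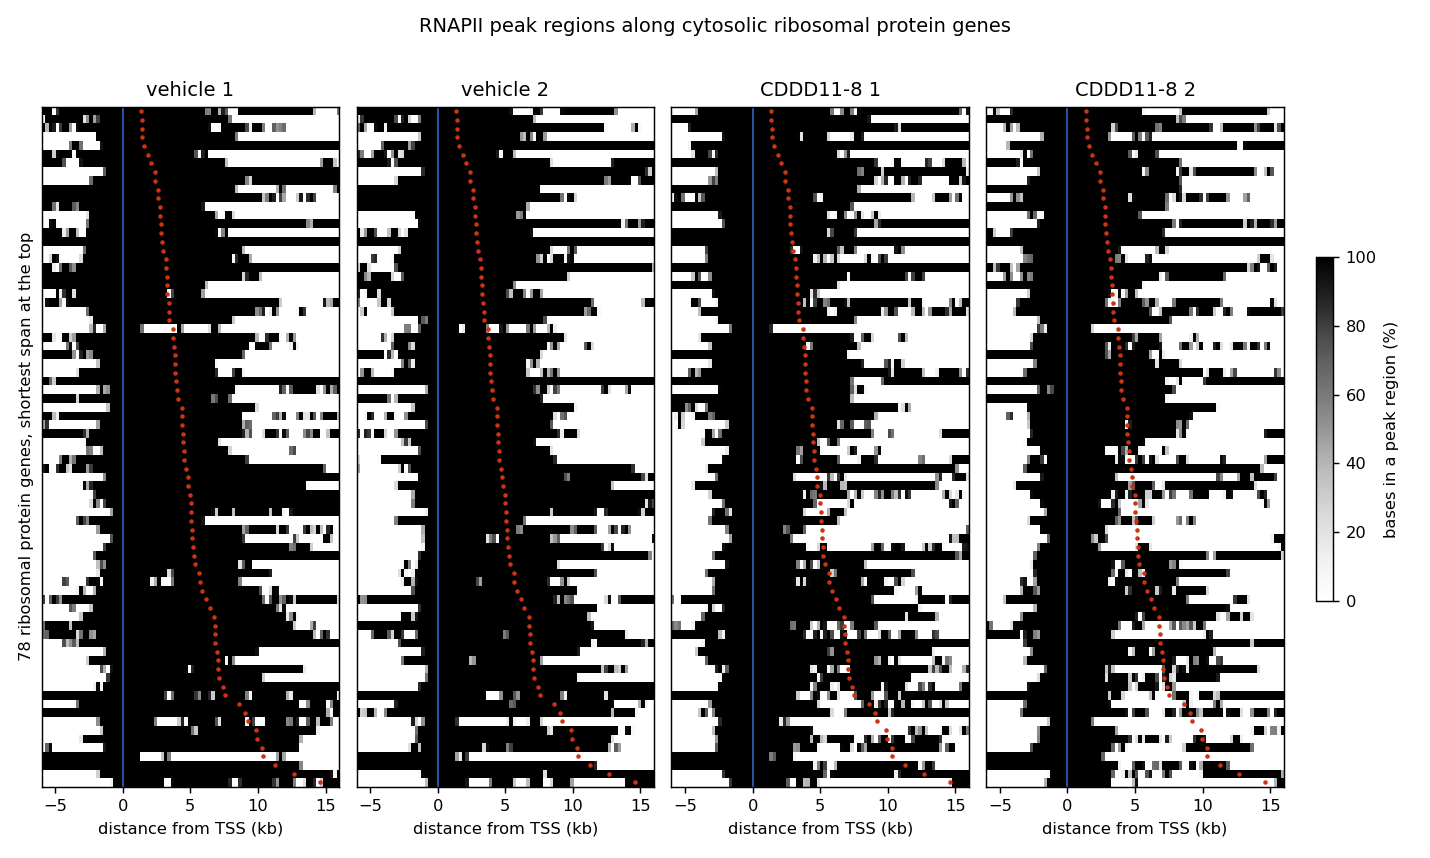
Peak regions along the 78 members with an occupied promoter, shortest span at the top, in 250 bp bins from 6 kb before to 16 kb after the TSS. Black bins lie wholly in a peak region, the blue line is the TSS and red points mark each gene's TES. In the vehicle panels black extends past most red points and in the CDDD11-8 panels many rows turn white at or before them, while the black margin left of the TSS is slightly broader.

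Peaks were also narrower at other short genes with promoter peaks of similar rank. Compared with the 1919 other genes of similar length (spans from the 10th to the 90th percentile of the members), whose median width was 4547 and 4624 bp in vehicle and 6224 and 5043 bp in CDDD11-8, the members were wider by 7117.5 and 7034.5 bp in vehicle and by 3212.5 and 2701.5 bp in CDDD11-8, a change in the difference of -4119 bp (exact permutation test p = 0.33). When the other genes were limited to the 453 whose mean vehicle fold rank was at or above the members' lower quartile, their own median width was 14795 and 14129 bp in vehicle and 12686 and 9923 bp in CDDD11-8, and the change in the difference became 86.5 bp (exact permutation test p = 1). In that set 33.8% of genes were narrower and 24.7% wider. Against the 307 other genes whose mean vehicle width lay between the members' quartiles, a comparison added after the data had been seen, the change in the difference was -1547 bp (exact permutation test p = 0.33). Both limited sets were chosen by vehicle values and the members by symbol alone. Comparisons with them, here and below, cannot separate a difference between groups from the effect of that choice.

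The members held some of the most enriched peaks in the vehicle libraries and stood lower in the CDDD11-8 lists. The median fold rank over the 78 members was 99.3 and 98.5 in vehicle (98.9 ± 0.616, SD, n = 2) and 93.0 and 95.5 in CDDD11-8 (94.3 ± 1.80, SD, n = 2), a difference of -4.64 percentile points (exact permutation test p = 0.33), with no overlap between groups. Both CDDD11-8 ranks lay below both vehicle ranks in 51 of 78 members (65.4%) and above them in 1 (1.28%), compared with 42.2% and 9.07% of all 10192 genes. The exception was RPL35, a 60S gene named after its values were seen. With equal numbers of peaks per library 26 members were lower and 6 higher (33.3% and 7.69%), compared with 12% and 38.2% of all 9573 genes that kept a promoter peak in each shortened list. With ranks among promoter peaks 28 were lower and 6 higher (35.9% and 7.69%), compared with 21.1% and 26% of all 10192 genes. Ranked only among promoter peaks of coding genes, which removes the effect of the larger number of peaks elsewhere in the vehicle lists, the member median was 95.4 and 91.6 in vehicle and 81.4 and 89.98 in CDDD11-8.

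**Figure D3:**
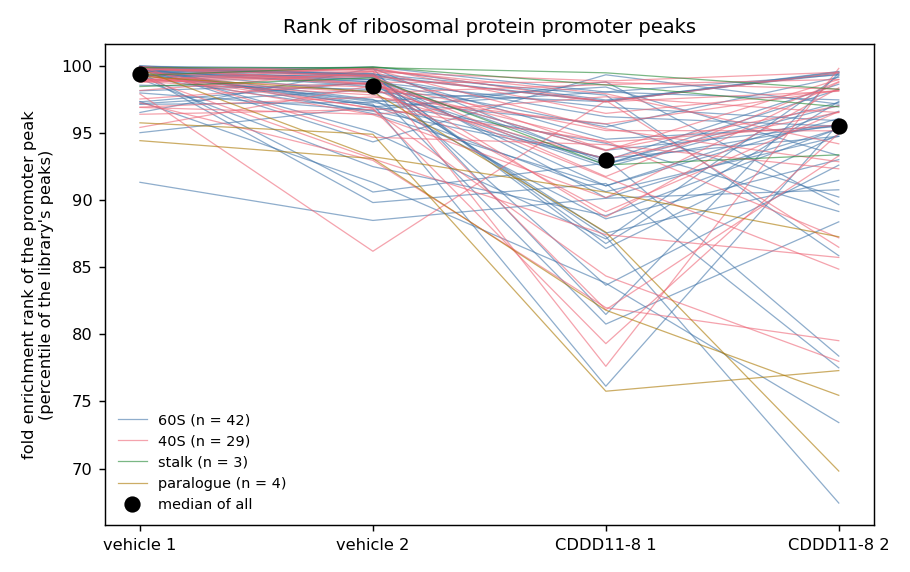
Fold enrichment rank of the promoter peak, as a percentile of all peaks in the library, for the 78 members, coloured by role, with lines joining the 4 values of a gene and black points at the medians. Medians are 99.3, 98.5, 93.0 and 95.5 from left to right, and the spread among members is wider in both CDDD11-8 libraries.

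The 5 members with the highest vehicle ranks were RPL3, RPL12, RPL41, RPS18 and RPLP0. RPLP0 had 99.8 and 99.8 in vehicle and 99.5 and 98.2 in CDDD11-8. RPL41, which encodes the smallest ribosomal protein, had 99.8 and 99.7 in vehicle and 97.4 and 99.4 in CDDD11-8. RPL3 stood at 81.5 in CDDD11-8 1 and at 99.5 in CDDD11-8 2, so that its groups differed by less than its 2 inhibitor libraries. The 5 with the lowest vehicle ranks were RPL22, RPS27L, RPS10, RPL38 and RPL32. RPL22, an RNA-binding 60S protein that is dispensable for translation, had 91.3 and 88.5 in vehicle and 90.1 and 90.8 in CDDD11-8, within the spread of the replicates. RPL38, a 60S protein linked to translation of Hox mRNAs, had 97.3 and 91.3 in vehicle and 83.8 and 73.4 in CDDD11-8. The order of the members was only loosely shared between replicates: Spearman's rho of fold rank over the 78 genes was 0.29 between the vehicle libraries and 0.36 between the CDDD11-8 libraries, against 0.65 and 0.79 over the 1919 other genes, and these are descriptions across genes that share libraries.

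The rank difference from other short genes depended on how peaks were ranked and on which genes were compared. The members' median exceeded that of the 1919 other genes by 4.85 and 5.07 points in vehicle and 7.14 and 13.1 points in CDDD11-8, a change of 5.14 points (exact permutation test p = 0.33), as the other genes stood lower, at 85.9 and 82.5. With equal numbers of peaks per library the change was -4.40 points (exact permutation test p = 0.33), and with ranks among promoter peaks it was -3.24 points (exact permutation test p = 1). Against the 453 genes of similar vehicle rank, the change was -0.28 points (exact permutation test p = 1), and 66.2% of those genes were lower in both inhibitor libraries. Those genes were chosen for high vehicle ranks and the members were not, so lower ranks in CDDD11-8 can follow in part from the choice.

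In the CDDD11-8 libraries the strongest RNAPII summit of the members was almost always at the promoter. Among the 79 members with any summit from 300 bp before the TSS to 3 kb after the TES, the strongest lay within 300 bp of the TSS in 54.4% and 70.9% in vehicle (62.7% ± 11.6, SD, n = 2) and in 94.9% and 96.2% in CDDD11-8 (95.6% ± 0.895, SD, n = 2), a difference of 32.9 percentage points (exact permutation test p = 0.33), with no overlap between groups. For vehicle, 19 and 15 members had their strongest summit after the TES and 17 and 8 had it inside the gene. For CDDD11-8, 1 and 3 members had it after the TES, and 3 and 0 inside the gene. All 42 members of the 60S list had it at the promoter in both CDDD11-8 libraries, against 61.9% in each vehicle library. Of the 29 genes of the 40S list, 51.7% and 86.2% had it there in vehicle and 93.1% and 96.6% in CDDD11-8. For the 3 stalk genes the vehicle libraries disagreed, at 0% and 100%, and both CDDD11-8 libraries gave 100%.

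The gap between groups in this share was wider at the members than at the comparison genes of similar length. Other genes for protein synthesis, in lists described in the last paragraph of these results, also had higher shares in CDDD11-8. In vehicle 1, vehicle 2, CDDD11-8 1 and CDDD11-8 2 the share was 66.7%, 69.2%, 91.03% and 87.2% for mitochondrial ribosomal protein genes. In the same order it was 42.1%, 71.1%, 89.5% and 81.6% for translation factor genes. For ribosome biogenesis genes it was 62.2%, 72.97%, 94.7% and 92.1%. The share was 51.9%, 67.5%, 77.6% and 77.5% in vehicle 1, vehicle 2, CDDD11-8 1 and CDDD11-8 2 over the other genes of similar length, and 45.3%, 63.1%, 73.5% and 75.3% over those of similar vehicle rank. The members exceeded the latter by 9.18 and 7.75 points in vehicle and 21.4 and 20.9 points in CDDD11-8, a change of 12.7 points (exact permutation test p = 0.33). The strongest summit lay away from the promoter in both vehicle libraries and at the promoter in both CDDD11-8 libraries in 11 of 78 members (14.1%), compared with 8% of all 10192 genes, and the opposite way in 0 members, compared with 0.912% of all genes. RPL10, a 60S gene, had its strongest summit 3012 and 2991 bp after the TSS in vehicle and 126 and 29 bp before it in CDDD11-8. RPS27A, which encodes a fusion of ubiquitin and a 40S protein, had it 1781 and 439 bp after the TSS in vehicle and within 12 bp of the TSS in CDDD11-8. RPL41, with a span of 1335 bp, had it 518 and 305 bp after the TSS in vehicle and 7 and 31 bp after it in CDDD11-8.

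**Figure D4:**
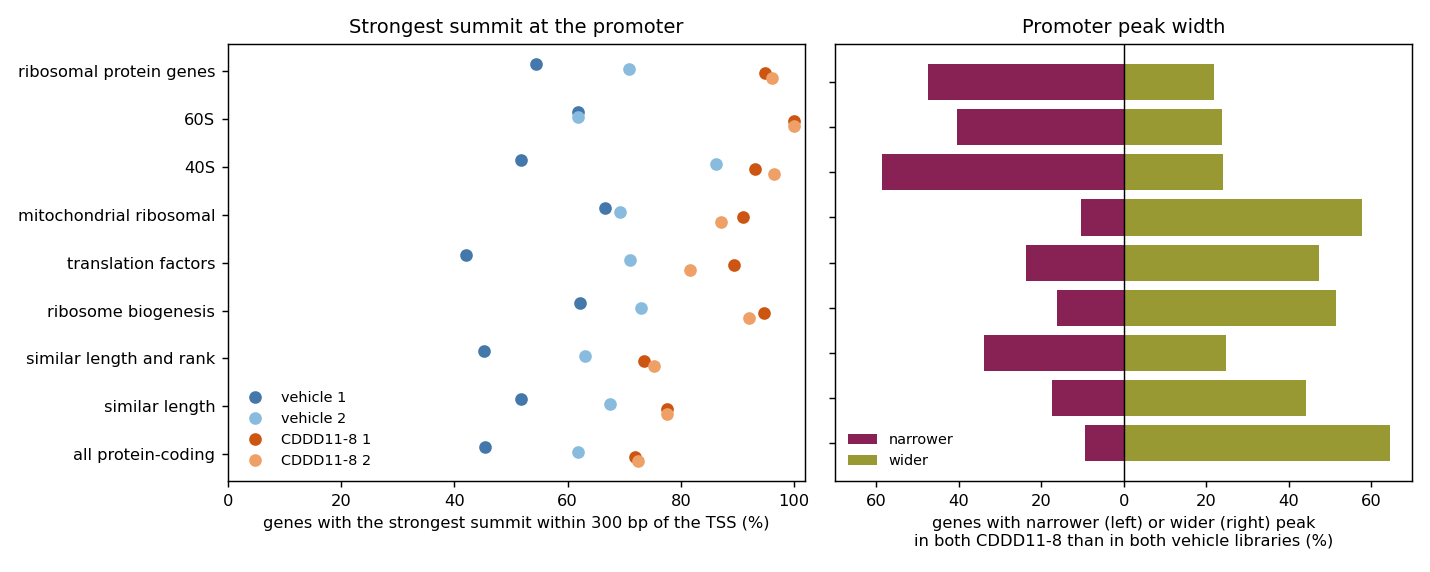
Left, percent of genes with any summit whose strongest summit lay within 300 bp of the TSS, with a point for each library; right, percent of genes whose promoter peak was narrower or wider, out of those with one in each of the 4 libraries. Ribosomal protein genes reach 94.9% and 96.2% in CDDD11-8, and 47.4% of them were narrower against 9.46% of all protein-coding genes.

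Peaks covered nearly all of the gene body of the median member in every library, so that this measure had little room to differ at its median. The median share of the body in peaks, from 300 bp after the TSS to the TES and over all members but RPL10L, whose span is under 1 kb, was 100%, 100%, 100% and 97.6% (difference -1.21 points, exact permutation test p = 1), and 37 members were fully covered in all 4 libraries. The mean was 94.5% and 94.0% in vehicle and 87.5% and 82.4% in CDDD11-8, a difference of -9.30 points (exact permutation test p = 0.33). Coverage was lower, by the same criterion, in 26 of 78 members (33.3%) and higher in 1 (1.28%), compared with 36.6% and 25.3% of all genes. The share that was lower was thus near that of all genes. It was 25.4% among the 1919 other genes of similar length, of which 20.6% were higher. Among the 453 of similar vehicle rank 23.8% were lower and 4.86% higher. The 37 members fully covered in all 4 libraries could not be counted in either direction. The other genes of similar length had medians of 77.9% and 75.01% in vehicle and 68.5% and 50.7% in CDDD11-8. The 78 members with a promoter peak, whose medians were 100%, 100%, 100% and 99.3%, exceeded them by 22.1 and 24.99 points in vehicle and 31.5 and 48.6 points in CDDD11-8 (change 16.6 points, exact permutation test p = 0.33), whereas with means in place of medians the change was -5.24 points.

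The 5 members with the largest differences toward lower body coverage were RPL5, RPS10, RPL22, RPL36A and RPL39. RPL5, which with RPL11 and 5S rRNA binds MDM2, spans 9885 bp and had 97.2% and 96.0% of its body in peaks in vehicle and 43.7% and 34.5% in CDDD11-8. RPS10, a 40S gene of 8616 bp, had 100% and 98.1% in vehicle and 60.8% and 35.4% in CDDD11-8. RPL22, of 14576 bp, had 83.2% and 49.1% in vehicle and 25.3% and 23.01% in CDDD11-8. RPL36A, of 5145 bp, had 100% and 87.2% in vehicle and 53.6% and 48.6% in CDDD11-8, and RPL39, of 5127 bp, had 100% and 100% in vehicle and 71.3% and 52.0% in CDDD11-8. In all 5 genes the groups did not overlap. RPL36A and RPS10 share their starts with the readthrough genes RPL36A-HNRNPH2 and RPS10-NUDT3, so peaks there belong to both annotations. At the other end of the order, RPL26L1 was the exception of the 78 with higher coverage, at 25.3% and 23.6% against 14.3% and 15.5% in vehicle.

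Peaks reached less far past the gene end in the CDDD11-8 libraries. In the 3 kb after the TES the median coverage over the same members was 100% and 100% in vehicle and 93.1% and 89.0% in CDDD11-8 (91.1% ± 2.93, SD, n = 2), a difference of -8.94 points (exact permutation test p = 0.33). Coverage was lower, again by non-overlap, in 34 of 78 members (43.6%) and higher in 2 (2.56%), compared with 41.2% and 2.88% of all genes, so that neither share stood apart from the background. Full coverage was present in 56 members in both vehicle libraries and in 28 in both CDDD11-8 libraries. Those 56 had no room to be counted as higher. The 24 members fully covered in all 4 libraries could not be counted in either direction, which limits the comparison with all genes. Averaged over the 78 genes, coverage of the first 1 kb after the TES was 96.4% and 94.8% in vehicle and 82.1% and 76.9% in CDDD11-8, and from 1 to 3 kb it was 93.0% and 90.6% in vehicle and 77.0% and 67.2% in CDDD11-8. From 3 to 5 kb the values were 69.7% and 65.1% in vehicle and 57.9% and 47.6% in CDDD11-8, and beyond 5 kb the groups overlapped, with 37.7%, 31.9%, 33.8% and 26.9% from 5 to 10 kb.

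**Figure D5:**
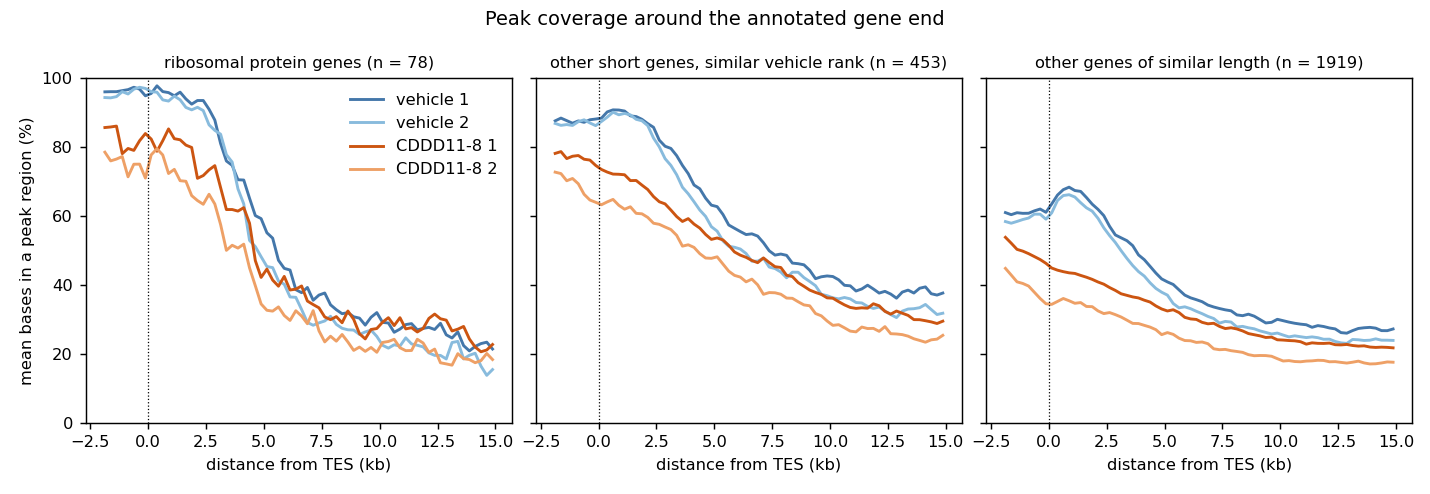
Mean percent of bases in a peak region in 250 bp windows from 2 kb before to 15 kb after the TES, for the ribosomal protein genes, for other short genes of similar vehicle fold rank and for other genes of similar length; each line is a library. In the first 1 kb after the TES the members average 96.4% and 94.8% in vehicle and 82.1% and 76.9% in CDDD11-8.

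The difference was larger at members that stand alone. Over the 35 genes at least 3 kb from any other, mean coverage from 1 to 3 kb after the TES was 91.5% and 87.6% in vehicle and 68.9% and 54.7% in CDDD11-8. Over the 585 other genes of similar length that stand alone, it was 47.7% and 45.2% in vehicle and 24.8% and 18.5% in CDDD11-8. The group differences were -27.8 points at the members and -24.8 points at these other genes. RPL39 had 100% and 92.7% of the 3 kb in peaks in vehicle and 0% and 0% in CDDD11-8. RPL34, a 60S gene, had 100% and 100% in vehicle and 26.4% and 0% in CDDD11-8, and RPS3A had 100% and 100% in vehicle and 10.5% and 13.6% in CDDD11-8. RPL11, the partner of RPL5, had 93.9% and 100% in vehicle and 39.6% and 0% in CDDD11-8. Large differences were also found at members close to other genes: RPL36A, which overlaps its readthrough gene, had 100% and 100% in vehicle and 0% and 0% in CDDD11-8, and RPL5, 243 bp from its neighbour, had 100% and 100% in vehicle and 33.7% and 0% in CDDD11-8. These 6 genes had no overlap between groups.

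Coverage after the TES was higher, by non-overlap, at 2 of the 78 members with a promoter peak, both near other genes. RPL27A had 27.5% and 17.8% in vehicle and 89.1% and 59.7% in CDDD11-8, and its nearest coding neighbour lay 127 bp away. RPL7L1, which encodes a nucleolar homologue of RPL7, had 90.4% and 84.3% in vehicle and 100% and 100% in CDDD11-8, with a neighbour at 365 bp. RPL13 had 100% and 90.7% in vehicle and 100% and 100% in CDDD11-8, and RPS23, a 40S gene of the decoding centre, had 31.6% and 45.7% in vehicle and 43.7% and 41.9% in CDDD11-8, both with overlapping groups and with neighbours at 2916 and 17187 bp. RPS19 and RPS14, 40S genes affected in Diamond-Blackfan anaemia and in 5q deletion respectively, had most of the 3 kb after their TES covered in every library: RPS19 had 93.8% and 100% in vehicle and 100% and 100% in CDDD11-8, and RPS14 had 100% and 100% in vehicle and 100% and 86.9% in CDDD11-8.

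Median coverage after the TES was further above that of other genes of similar length in CDDD11-8 than in vehicle. The median over the 1919 other genes was 82.2% and 78.1% in vehicle and 19.1% and 0% in CDDD11-8. The 78 members with a promoter peak, with medians of 100%, 100%, 93.1% and 89.9%, exceeded it by 17.8 and 21.9 points in vehicle and 74.0 and 89.9 points in CDDD11-8, a change of 62.1 points (exact permutation test p = 0.33), which became 5.92 points with means in place of medians. The change had the opposite sign when both sides were limited to genes fully covered in both vehicle libraries (56 members and 546 others). That comparison was added after the data had been seen. The 453 genes of similar vehicle rank had medians of 100% and 100% in vehicle and 100% and 81.5% in CDDD11-8, so that the members lay below them in CDDD11-8 1 and above them in CDDD11-8 2 and the change was 0.783 points (exact permutation test p = 1). Mean coverage of the first 1 kb after the TES in that set was 90.1% and 89.0% in vehicle and 72.7% and 63.9% in CDDD11-8, in each library below that of the members.

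Where a summit was present after the TES, it was weaker in the CDDD11-8 libraries relative to the promoter summit of the same library. Over the 64 members with a summit in both places in all libraries, the median log2 ratio of the fold enrichment of the strongest summit in the 3 kb after the TES to that of the strongest promoter summit was -0.35 and -0.58 in vehicle and -2.29 and -2.45 in CDDD11-8, a difference of -1.91 (exact permutation test p = 0.33). The ratio was lower in both CDDD11-8 libraries in 58 of these 64 members (90.6%) and higher in 0, compared with 75.9% and 5.55% of the 2090 genes with both summits. In the 270 such genes of similar length and vehicle rank the medians were 0.04, -0.50, -1.90 and -1.85 in vehicle 1, vehicle 2, CDDD11-8 1 and CDDD11-8 2.

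Members can also be divided by the TOP tract at the annotated TSS and by whether they host snoRNAs. The median width was 12542 and 11702 bp in vehicle and 9376 and 7571 bp in CDDD11-8 over the 57 genes with the tract, and 10821 and 11490 bp in vehicle and 9526 and 8607 bp in CDDD11-8 over the 21 without it that had a promoter peak. Narrower peaks in both CDDD11-8 libraries were found in 54.4% of the former and 28.6% of the latter (9.46% of all genes), and lower ranks in 66.7% and 61.9% (42.2% of all genes). The 26 hosts of snoRNAs had a median width of 12496 and 12434.5 bp in vehicle and 10716 and 8872 bp in CDDD11-8, and the 52 other members 11542 and 11083.5 bp in vehicle and 8862.5 and 7467 bp in CDDD11-8. These divisions are descriptions of genes measured in the same libraries.

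In 3 other lists of genes for protein synthesis wider peaks outnumbered narrower ones. Their genes were longer, with median spans of 8411.5 bp (mitochondrial ribosomal proteins), 17727.5 bp (translation factors) and 13559 bp (ribosome biogenesis), against 4522 bp for the members. The 78 mitochondrial ribosomal protein genes, whose products build the separate ribosome of mitochondria, all had promoter peaks in every library, with median widths of 3351.5 and 3195.5 bp in vehicle and 4679 and 4447 bp in CDDD11-8. Of these, 8 (10.3%) were narrower and 45 (57.7%) wider, against 9.46% and 64.5% of all genes. Among 38 translation factor genes, 9 (23.7%) were narrower and 18 (47.4%) wider, with median widths of 7397 and 6362 bp in vehicle and 7099 and 6557 bp in CDDD11-8. Among the 37 ribosome biogenesis genes with occupied promoters, 6 (16.2%) were narrower and 19 (51.4%) wider. In both of the latter lists narrower peaks were more frequent, and wider peaks less frequent, than among all genes. Coverage after the TES, in contrast, was lower in both CDDD11-8 libraries in 34 of the 78 mitochondrial genes, 22 of the 38 translation factor genes and 23 of the 37 biogenesis genes, compared with 41.2% of all genes, and the mitochondrial median was 62.2% and 54.1% in vehicle and 0% and 0% in CDDD11-8. In vehicle these lists had median fold ranks between 89.8 and 97.4, below those of the cytosolic ribosomal protein genes.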

How the data were processed

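RNAPII ChIP-seq of MDA-MB-453 cells was analysed from the 4 peak lists that the authors deposited; input libraries entered only through the authors' peak calling and are not analysed here. Paired-end reads had been mapped by the authors with Bowtie 2 (build GRCh37, hg19), and they called peaks for each sample with MACS2 at default settings; tool versions are not given in the sources used here, nor is the treatment of reads that match several places, which matters for genes with processed pseudogenes. The deposited columns used were each region's length in bp, its summits' fold enrichment over input and its −log10 q-value. The lists hold no library totals and the study gives only a minimum for the reads sequenced, so the depth of each library behind its peaks, and with it the precision of a missing peak, a width or a coverage, is unknown.

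Gene models were the Ensembl canonical transcripts of GENCODE release 44 lifted to GRCh37, in place of the longest transcript kept by the study, which was run as an alternative. Windows were 300 bp either side of the TSS, the body from 300 bp after the TSS, and 3 kb after the TES. Medians over genes were compared between libraries with the exact two-sided permutation test over 4 libraries (smallest p = 0.33); comparisons with other genes used the difference of medians in each library. Measures were tested on simulated data, with 400 of 400 planted genes recovered. Alternatives were the peak threshold, equal numbers of peaks, transcript, windows, joined regions, neighbouring genes, rank measure, comparison genes, replicate block and leaving out each library. Named genes were the paralogues and their namesakes, the 5 members at either end of the changes in body and post-TES coverage and of the vehicle fold rank, members without a promoter peak, and 10 genes chosen by role. The members, lists and tests were chosen with earlier results of these data known. Sequences were read from the GRCh37 primary assembly. Computation was done in Python 3.11.15 (pandas 2.3.3, numpy 2.4.6), and figures were drawn with matplotlib 3.10.9. A few items are not reported here.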

Additional observations from a re-analysis of the deposited data

How the results depend on the processing

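Of 134 recomputed values of the 10 results, 125 kept their direction, 3 went from or to 0 and 6 reversed; the causes were not tested. No test could pass in this design. With the longest transcript the difference in promoters with a peak was 0.5 genes. The body coverage difference was 0 points without the paralogues, and lay between -2.42 and 0 when each library was left out. With other genes of similar vehicle rank the width difference was 86.5 bp and the rank difference -0.28 points; the latter was -4.40 with equal numbers of peaks and -3.24 among promoter peaks. Means in place of medians gave a body difference of -5.24 points. Limiting both sides to genes fully covered after the TES in both vehicle libraries gave a post-TES difference of -3.24 points, opposite in sign to the main value of 62.1. Both alternatives were chosen after seeing the data. With each library left out, the width difference of the members stayed between -3917 and -2225 bp, that of the summit share between 24.7 and 41.1 points and that of coverage after the TES between -11.0 and -6.87 points. The replicate block left each value as it was (width -3071 bp, sign-flip p = 0.5), and deviations of same-numbered libraries were not correlated (-0.019 over 10192 genes). With vehicle 1, vehicle 2, CDDD11-8 1 or CDDD11-8 2 left out, the members counted as higher were 7, 3, 3 and 3 for rank, 2, 3, 1 and 1 for body coverage and 6, 5, 2 and 4 for coverage after the TES.

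Of 587 values for single named genes, 557 kept their direction. Joining regions within 1 kb reversed the width differences of RPL10 (-70377.5 bp), RPL22 (-5015.5), RPL3 (2253), RPL7 (691.5), RPLP2 (4326.5), RPS14 (2291) and RPS27 (-21839.5). From 3 to 10 kb after the TES, RPL3L gave -6.16 and RPL5 17.5 points. By q-value the RPL22 rank difference was -4.89 points. For RPS10 it was 2.85 at the stricter threshold, 13.7 with equal numbers of peaks and 21.03 among promoter peaks, and RPS23 coverage after the TES was -16.8 points at the stricter threshold. Leaving out each library, widths ranged from -8307 to 41281 bp for RPL10, -5364.5 to 965.5 for RPL3, -8519.5 to 1339.5 for RPL7L1, -1479 to 1123 for RPLP0, -31633 to 14911 for RPLP2 and -411.5 to 1273.5 for RPS27L, ranks from -0.87 to 1.97 for RPL22 and -5.94 to 5.76 for RPS10, and coverage from -4.72 to 14.1 points for RPL26 (body) and -2.87 to 11.2 for RPS23 (after the TES).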
